A study of Mus musculus with 4 samples.

Results

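The leukocyte integrin genes are 10 of the 15298 genes listed for mouse peritoneal macrophages, taken by symbol: *Itgal*, *Itgam*, *Itgax*, *Itgb2*, *Itga4*, *Itga6*, *Itga9*, *Itgb1*, *Itgb5* and *Itgb7*. All 10 were listed and had a log2 mean above 0 in every comparison, so none was lost to the filter on low values. The beta 2 family held 4 of them, *Itgb2* and its alpha partners *Itgal*, *Itgam* and *Itgax*. The beta 1 and beta 7 families held 5, *Itgb1*, *Itgb7*, *Itga4*, *Itga6* and *Itga9*, and *Itgb5* belonged to neither.

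Integrins are pairs of an alpha and a beta subunit that span the cell membrane and tie the actin skeleton to other cells or to the extracellular matrix. The beta 2 subunit CD18, product of *Itgb2*, is restricted to leukocytes and pairs with LFA-1 alpha (*Itgal*), CD11b (*Itgam*) and CD11c (*Itgax*), which bind ICAM proteins and, for CD11b and CD11c, complement-coated particles that are then engulfed. The beta 1 subunit (*Itgb1*) pairs with many alpha subunits and binds fibronectin, laminin and VCAM-1, whereas the beta 7 subunit (*Itgb7*) pairs with alpha 4 (*Itga4*) or alpha E. In the mouse peritoneum, macrophages are known for high CD11b.

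The cells were sorted as CD11b+ F4/80+ Ly6G- and came from BALB/c females aged 6 weeks, with no genetic change given in the labels. All mice were anesthetized with isoflurane and carried electrode pads on the abdomen and the back at Zeitgeber Time (ZT) 2. The MCS mice received bidirectional pulsed microcurrent stimulation (MCS) for 15 min, whereas the control mice went through the procedure without current. Cells were taken at ZT2, right after the end of MCS, or at ZT14, 12 h later, which gave 4 libraries: control and MCS at each time. There was 1 library per condition, and the number of mice behind each was not given in the sources used here. A single comparison therefore has no replicate error and no p-value, and it compares 2 libraries, not 2 conditions.

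The libraries held between 8365590 and 9953243 reads, recovered from the deposited CPM, the read count of a gene scaled to the size of its library. Macrophage markers were present throughout, with *Lyz2*, which encodes lysozyme, between 17344 and 18847 CPM. In control and MCS, *Csf1r* had 1066 and 1028 CPM at ZT2 and 1156 and 1233 CPM at ZT14. *Mertk* had 188 and 183 CPM at ZT2 and 97.7 and 117 CPM at ZT14. *Cd68* went the other way, with 285 and 300 CPM at ZT2 and 299 and 215 CPM at ZT14. *Adgre1*, which encodes the sort marker F4/80, had 1327 CPM without and 1086 CPM with MCS at ZT2, and 1361 and 1900 CPM at ZT14. *Itgam* itself encodes the other positive sort marker, so its level is not independent of the sort. Differences are given as log2 ratios of CPM + 0.1 with a 95% counting interval from the recovered reads, which covers counting error only and neither mice nor library preparation.

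Promoter sequence was available for 7 of the 10 genes in RefSeq (GRCm38.p6), as the 250 bases before the transcript start given there. The window of *Itga9* lay 105 kb inside the gene as GENCODE places it and is left out of the counts, which leaves 6 windows at the start of the gene. Shown here are *Itgam* and *Itgax*, neighbors on chromosome 7 separated by 11.1 kb whose transcripts moved in opposite directions with MCS, and *Itgb1*, which moved with *Itgam*. Capitals mark GAGGAA, the core of the motif of the myeloid factor PU.1, on either strand.
Itgam, chr7:128062390-128062639, plus strand: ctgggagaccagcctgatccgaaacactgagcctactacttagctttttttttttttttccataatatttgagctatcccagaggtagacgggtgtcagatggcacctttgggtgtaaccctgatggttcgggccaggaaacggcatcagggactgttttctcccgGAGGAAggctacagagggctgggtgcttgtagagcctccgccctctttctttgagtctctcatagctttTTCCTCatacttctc
Itgax, chr7:128129300-128129549, plus strand: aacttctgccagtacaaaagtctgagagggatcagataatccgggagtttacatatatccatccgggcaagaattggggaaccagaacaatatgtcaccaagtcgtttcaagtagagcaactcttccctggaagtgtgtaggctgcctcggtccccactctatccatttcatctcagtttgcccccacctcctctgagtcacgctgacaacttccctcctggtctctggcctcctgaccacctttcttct
Itgb1, chr8:128685404-128685653, plus strand: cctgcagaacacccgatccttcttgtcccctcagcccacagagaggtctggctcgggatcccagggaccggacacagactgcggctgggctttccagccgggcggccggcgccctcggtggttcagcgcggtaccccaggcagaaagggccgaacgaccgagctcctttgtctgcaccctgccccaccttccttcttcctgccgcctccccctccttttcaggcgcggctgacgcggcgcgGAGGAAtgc
GAGGAA, searched on both strands, was found in the windows of *Itgam* and *Itgb1*, that is in 2 of 6 genes, and in 23.3% of 32851 promoters of the same length. The E-box CACGTG, the letters bound by the core clock factors, was in 0 of 6 windows and in 6.02% of all promoters, and the nuclear receptor half-site AGGTCA was in 0 of 6 and in 14% of all. The searched motifs do not overlap each other in these windows. A match describes letters in these windows and no more.

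Per transcript length, *Itgam* was the most abundant of the 10 genes and *Itgb5* the least. *Itgam* (GRCm38, chromosome 7, 128062640 to 128118491, plus strand) ranged over the libraries from 900 to 1103 CPM per kb of its longest coding transcript, and *Itgb2* (chromosome 10, 77530252 to 77565708, plus strand) from 577 to 686. *Itga6*, the alpha 6 subunit of laminin receptors (chromosome 2, 71745616 to 71858416, plus strand), followed with 365 to 479 CPM per kb. *Itgb1* (chromosome 8, 128685654 to 128733200, plus strand) had 309 to 383 CPM per kb, which overlapped *Itga6*. These 4 genes led in all 4 libraries.

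*Itga4* (chromosome 2, 79255426 to 79333123, plus strand) had 77.3 to 92.8 CPM per kb and *Itgb7* (chromosome 15, 102215995 to 102231944, minus strand) 61.0 to 80.9, and both ranges overlapped. *Itgal* (chromosome 7, 127296260 to 127335138, plus strand) had 15.2 to 18.9 CPM per kb. *Itga9*, the alpha 9 partner of beta 1 (chromosome 9, 118606690 to 118901003, plus strand), had 10.4 to 11.6. The lowest levels per kb were those of *Itgax* (chromosome 7, 128129547 to 128150657, plus strand), 1.74 to 5.48, and *Itgb5*, whose product pairs with alpha v (chromosome 16, 33829665 to 33949338, plus strand), 0.402 to 0.990. Of the 9 pairs of neighbors in this order, 2 overlapped over the 4 libraries, *Itga6* with *Itgb1* and *Itga4* with *Itgb7*.

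Within the beta 2 family, *Itgam* made up 97.7% to 98.4% of the summed level per kb of the 3 alpha subunits, *Itgal* 1.45% to 1.81% and *Itgax* 0.166% to 0.526%. The *Itgax* share was highest with MCS at ZT2 and lowest with MCS at ZT14. Among *Itga4*, *Itga6* and *Itga9*, *Itga6* made up 78.8% of the summed level per kb with MCS at ZT2 and 84.5% with MCS at ZT14, with both controls between them at 80.8% and 80.2%. The level per kb of *Itga4* was 1.42 times that of *Itgb7* in control at ZT2, 1.52 times with MCS at ZT2, 1.20 times in control at ZT14 and 0.956 times in MCS at ZT14. *Itgb7* thus exceeded *Itga4* per kb in 1 of the 4 libraries.

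**Figure D1:**
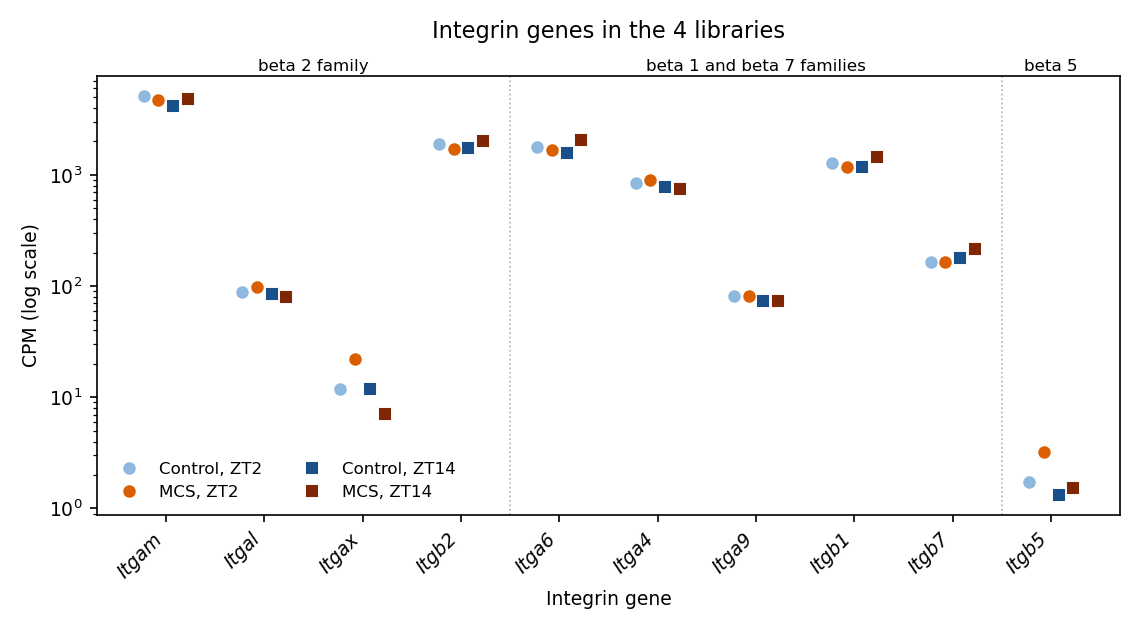
CPM of the 10 integrin genes (log axis), 1 point per library, circles for ZT2 and squares for ZT14, without error bars because each condition had 1 library. *Itgax* spreads from 7.06 to 22.2 CPM, whereas the points of *Itgam* lie between 4214 and 5162 CPM.

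The first comparison was MCS against control at ZT2, immediately after stimulation. The most abundant integrin genes were slightly lower in the MCS library and *Itgax* was higher. No member passed the absolute log2 ratio of 1 used in the study's methods, at which 2.21% of all genes past the minimum were called. At 0.5, 2 of the 10 members passed, *Itgax* and *Itgb5*, both higher, beside 10.4% of all genes.

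*Itgam* had 5162 CPM without and 4760 CPM with MCS, a log2 ratio of -0.12 (-0.14 to -0.10). *Itgb2* had 1899 and 1714 CPM, a log2 ratio of -0.15 (-0.18 to -0.11). *Itga6* had 1790 and 1668 CPM, a log2 ratio of -0.10 (-0.13 to -0.07). These 3 genes were lower in MCS by more than counting error, as was *Itgb1* with 1286 CPM without and 1178 CPM with MCS, a log2 ratio of -0.13 (-0.17 to -0.09). *Itga4* went the other way, with 849 and 906 CPM and a log2 ratio of 0.09 (0.05 to 0.14). *Itgal* had 89.4 and 98.6 CPM, a log2 ratio of 0.14 (-0.00 to 0.28), and its interval just included no change. *Itga9* (81.4 and 81.2 CPM) and *Itgb7* (165 and 164 CPM) had log2 ratios of -0.00 (-0.16 to 0.15) and -0.01 (-0.12 to 0.10). In all, the interval excluded no change for 5 of the 8 members with a mean of at least 64 CPM, while it did so for 42.3% of the 2981 such genes.

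*Itgax* had 11.9 CPM without and 22.2 CPM with MCS at ZT2, from 103 and 191 reads, a log2 ratio of 0.89 (0.54 to 1.26). Of all genes past the minimum, 3.03% differed at least as far. *Itgb5* had 1.73 and 3.25 CPM, a log2 ratio of 0.87 that rested on 15 and 28 reads and whose interval ran from -0.05 to 1.92. The level of *Itgb5* was thus too low to show a difference of this size at this depth.

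The second comparison was MCS against control at ZT14, 12 h after stimulation. Here 5 of the 8 abundant members, *Itgam*, *Itgb2*, *Itga6*, *Itgb1* and *Itgb7*, were higher in MCS beyond counting error, and *Itgax* was lower. Again no member passed an absolute log2 ratio of 1, which 3.4% of all genes did. At 0.5, 1 of 10 members passed, *Itgax*, beside 16.7% of all genes.

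*Itga6* differed furthest among the abundant members, with 1574 CPM without and 2065 CPM with MCS, a log2 ratio of 0.39 (0.36 to 0.42). Of the 2981 genes with a mean of at least 64 CPM, 11.8% differed at least as far. *Itgb1*, the beta partner of alpha 6 in macrophages, had 1186 and 1461 CPM, a log2 ratio of 0.30 (0.26 to 0.34). *Itgb7* had 179 and 217 CPM, a log2 ratio of 0.28 (0.18 to 0.37). *Itgb2* had 1731 and 2039 CPM, a log2 ratio of 0.24 (0.21 to 0.27), and its partner *Itgam* 4214 and 4831 CPM, a log2 ratio of 0.20 (0.18 to 0.22). All 3 beta subunits of the leukocyte families were higher in the MCS library at ZT14. Some markers of other cells were also highest in that library. The eosinophil markers *Siglecf* and *Ccr3* had 0.659 and 1.32 CPM in control but 14.1 and 33.8 CPM in MCS. The third listed eosinophil marker, *Il5ra*, was lower with MCS at ZT14, with 48.9 CPM in control and 33.9 in MCS. The hemoglobin gene *Hba-a2* was at 49.5 CPM in MCS at ZT14 and at 0 in the other 3 libraries. *Hba-a1*, another hemoglobin gene, was high in both MCS libraries, with 1.62 and 22.0 CPM at ZT2 and 0.220 and 19.6 CPM at ZT14 in control and MCS. The part of these cells in the integrin values was not tested.

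The remaining alpha subunits did not follow. *Itga4* had 779 CPM without and 755 CPM with MCS, a log2 ratio of -0.04 (-0.09 to 0.00). *Itgal* had 84.9 and 79.3 CPM, a log2 ratio of -0.10 (-0.24 to 0.05), and *Itga9* 72.9 and 74.0 CPM, a log2 ratio of 0.02 (-0.13 to 0.18). The intervals of these 3 genes included no change. The interval excluded no change for 5 of the 8 abundant members, all higher, and for 64.4% of all genes at that level. *Itgax* had 11.8 and 7.06 CPM, from 107 and 69 reads, a log2 ratio of -0.73 (-1.19 to -0.29), and 7.74% of all genes past the minimum differed at least as far. *Itgb5* had 1.32 and 1.53 CPM, a log2 ratio of 0.20 (-0.98 to 1.44).

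**Figure D2:**
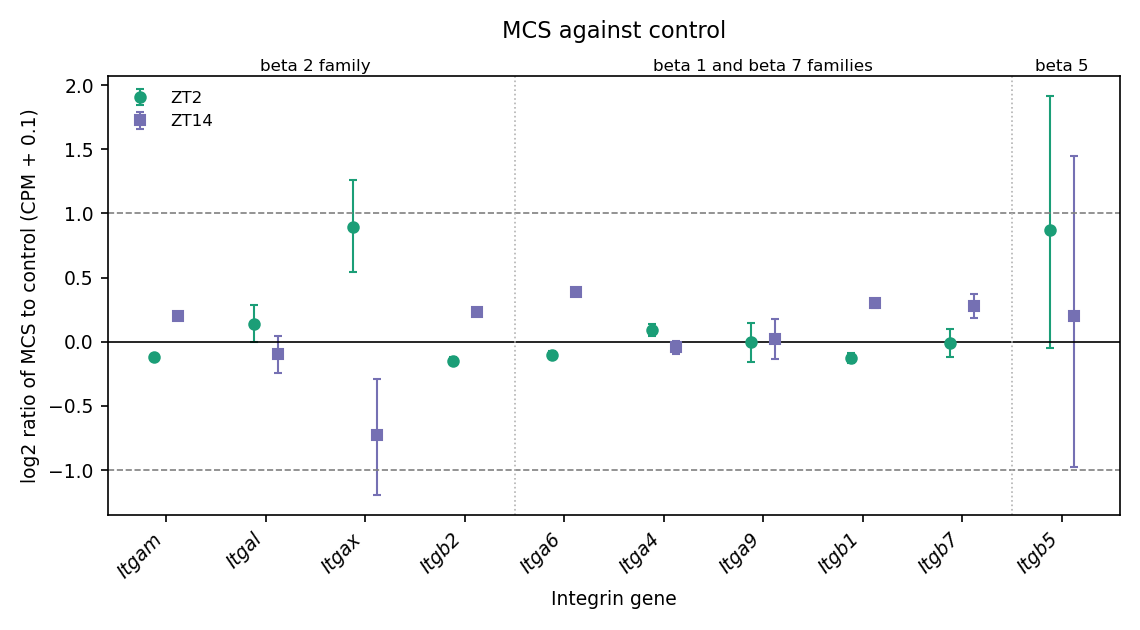
Log2 ratio of MCS to control (CPM + 0.1) for each integrin gene at ZT2 (circles) and ZT14 (squares), with 95% counting intervals and dashed lines at an absolute log2 ratio of 1. *Itgam*, *Itgb2*, *Itga6* and *Itgb1* lie below 0 at ZT2 and above 0 at ZT14, and *Itgax* goes from 0.89 to -0.73.

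The MCS ratio had opposite signs at ZT2 and ZT14 in 9 of the 10 members, the exception being *Itgb5*, and in 58.7% of the 12236 genes past the minimum at both times. Among genes with a mean of at least 64 CPM, the share was 8 of 8 members and 66.5% of all. In 5 members, *Itgam*, *Itgb2*, *Itga6*, *Itgb1* and *Itgax*, both intervals excluded no change, whereas at least 1 of the ratios lay within counting error in *Itgal*, *Itga4*, *Itga9* and *Itgb7*. The difference of the MCS ratio, ZT14 minus ZT2, lay above 0 beyond counting error for 5 members: 0.49 for *Itga6* (0.45 to 0.54), 0.43 for *Itgb1* (0.37 to 0.48), 0.38 for *Itgb2* (0.34 to 0.43), 0.31 for *Itgam* (0.29 to 0.34) and 0.29 for *Itgb7* (0.15 to 0.43). It lay below 0 for 3 members, -1.62 for *Itgax* (-2.18 to -1.06), -0.24 for *Itgal* (-0.44 to -0.04) and -0.14 for *Itga4* (-0.20 to -0.07). It included 0 for *Itga9* (-0.19 to 0.24) and *Itgb5* (-2.09 to 0.76). Among the 8 abundant members, 5 lay above 0 and 2 below, beside 28.4% and 35.8% of the 2981 genes at that level. Each side held genes of both families, so this split crossed the division into beta 2 and beta 1 or beta 7. No residual degree of freedom was left for a test of this difference.

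Lower with MCS at ZT2 and higher at ZT14, both beyond counting error, were 4 of the 8 abundant members, *Itgam*, *Itgb2*, *Itga6* and *Itgb1*, and 12.8% of the 2981 genes at that level. The reverse pattern was seen in 0 of the 8 and in 12.9% of these genes. This pattern was chosen after the values were seen, so its count is a description. Among other genes on the list of integrin activators and adaptors, 7 of 23 abundant ones had the pattern of *Itgam*, including *Tln1* and *Fermt3*, whose products talin-1 and kindlin-3 bind the beta subunit tail and switch integrins on, as well as *Vcl* and *Flna*, which link integrins to actin. *Tln1* had log2 MCS ratios of -0.14 (-0.17 to -0.11) at ZT2 and 0.26 (0.24 to 0.29) at ZT14. *Fermt3* had -0.15 (-0.23 to -0.07) and 0.36 (0.29 to 0.43). *Syk*, the tyrosine kinase that acts below beta 2 integrins, was the only one of the 23 with the reverse pattern, 0.09 (0.04 to 0.13) and -0.33 (-0.37 to -0.28).

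Markers of the resident large peritoneal macrophage are given beside these genes. The summed level of 6 such markers, *Gata6*, *Timd4*, *Selp*, *F5*, *Alox15* and *Garnl3*, was 8757 CPM without and 7775 CPM with MCS at ZT2, and 7980 and 10076 CPM at ZT14. *Itgb2* and *Itgb1* ranked the 4 libraries in the same order as this sum, which *Alox15* carried. Without *Alox15* the other 5 markers summed to 4742 and 4168 CPM at ZT2 and to 4268 and 4544 CPM at ZT14 in control and MCS, and the order was no longer that of *Itgb2*. Of these 6 markers, 4 showed the pattern of *Itgam* at both times, while *Gata6* was higher with MCS at ZT2 (69.1 and 80.9 CPM) and *Timd4* was close at ZT14 (421 and 412 CPM). In bulk RNA, fewer cells of a type and less RNA per cell cannot be told apart. The part of these markers in the result was not tested.

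**Figure D3:**
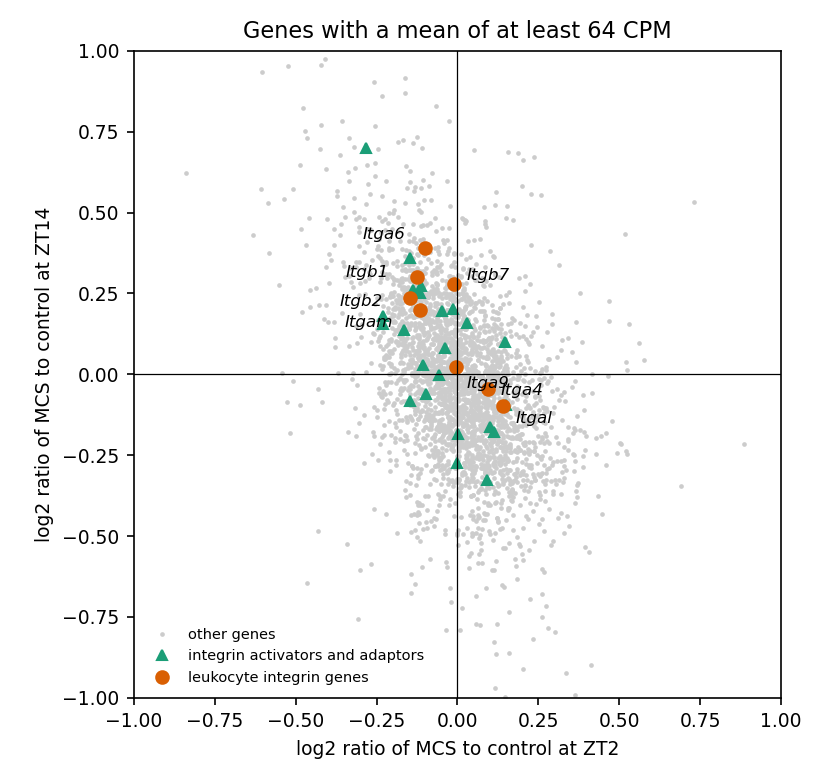
Log2 ratio of MCS to control at ZT2 (horizontal) and at ZT14 (vertical) for the 2981 genes with a mean of at least 64 CPM, of which 15 lie outside the axes. Integrin genes (orange circles) lie within the cloud of other genes (grey), with *Itga6*, *Itgb1*, *Itgb2* and *Itgam* at the upper left, and integrin activators and adaptors are shown as green triangles.

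The third comparison, ZT2 against ZT14 in control, described the time of day without stimulation. No member passed an absolute log2 ratio of 1 or of 0.5, which 3.61% and 15.3% of all genes did. *Itgam* differed furthest among the abundant members, with 5162 CPM at ZT2 against 4214 CPM at ZT14, giving a log2 ratio of 0.29 (0.27 to 0.31). *Itga6* (0.19, 0.15 to 0.22), *Itgb2* (0.13, 0.10 to 0.16), *Itga4* (0.12, 0.08 to 0.17) and *Itgb1* (0.12, 0.08 to 0.15) were also higher at ZT2. *Itga9* was higher by 0.16 (0.00 to 0.31), and *Itgb7* was lower, at -0.12 (-0.22 to -0.02). *Itgal* (0.07), *Itgax* (0.02) and *Itgb5* (0.37) had intervals that included no change. The interval excluded no change for 7 of the 8 abundant members, 6 of them higher at ZT2, and for 53.3% of all genes at that level.

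The fourth comparison was ZT2 against ZT14 in MCS. Its direction was opposite to that in control for 4 of the 8 abundant members, *Itgam*, *Itgb2*, *Itga6* and *Itgb1*. It was the same for *Itgal*, *Itga4*, *Itga9* and *Itgb7*. How many of the 2981 abundant genes changed direction in this way was not counted, so this split is a description only. *Itgb7* (-0.41, -0.51 to -0.31), *Itgb1* (-0.31, -0.35 to -0.27), *Itga6* (-0.31, -0.34 to -0.28) and *Itgb2* (-0.25, -0.28 to -0.22) were lower at ZT2 than at ZT14. *Itgam* was nearly level, with 4760 and 4831 CPM and a log2 ratio of -0.02 (-0.04 to -0.00). *Itga4* (0.26, 0.22 to 0.31) and *Itgal* (0.31, 0.17 to 0.46) were higher at ZT2, and *Itga9* had 0.13 (-0.02 to 0.29). The interval excluded no change for 7 of the 8 abundant members, 5 of them lower at ZT2, and for 68.9% of all genes at that level. This comparison shares the libraries of the other 3, so it is a second view of the same values and not a further measurement.

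*Itgax* and *Itgb5* were the 2 of 10 members called in MCS at an absolute log2 ratio of 1, both higher at ZT2, and at that threshold 5.83% of all genes were called. At 0.5 the same 2 members were called and 23.6% of all genes. *Itgax* had 22.2 CPM at ZT2 against 7.06 CPM at ZT14, giving a log2 ratio of 1.64 (1.25 to 2.07), and 1.67% of all genes past the minimum differed at least as far. *Itgb5* had a log2 ratio of 1.04 (0.13 to 2.09) from 28 and 15 reads.

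**Figure D4:**
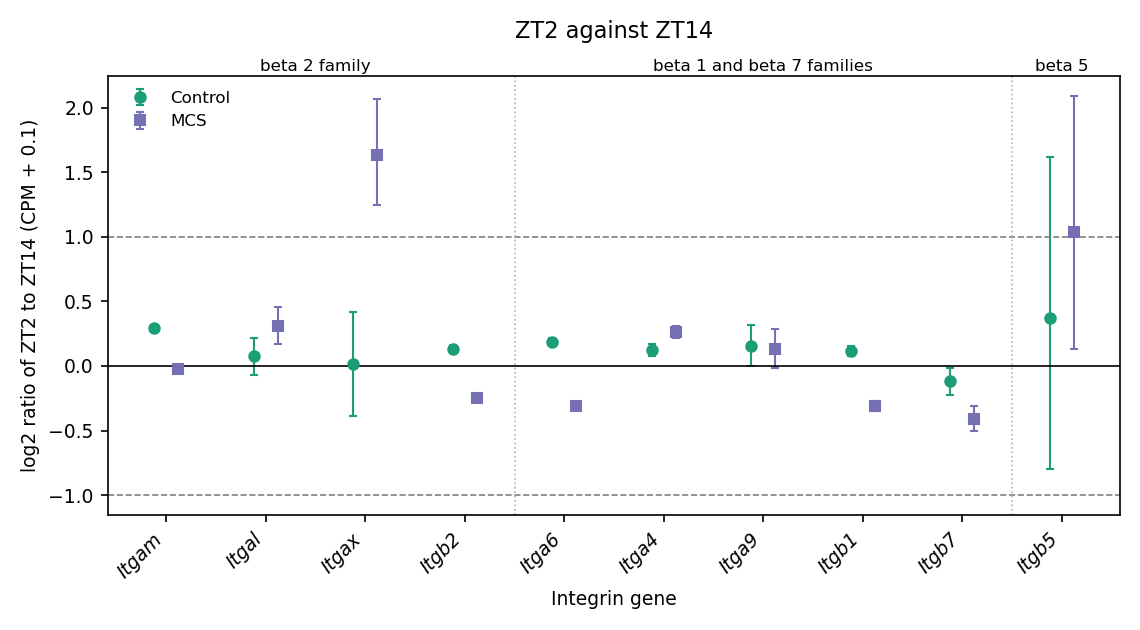
Log2 ratio of ZT2 to ZT14 (CPM + 0.1) for each integrin gene in control (circles) and MCS (squares), with 95% counting intervals and dashed lines at an absolute log2 ratio of 1. *Itgb2*, *Itga6* and *Itgb1* lie above 0 in control and below 0 in MCS, and *Itgax* reaches 1.64 in MCS.

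The summed markers of 4 of 13 cell types ranked the libraries in the same order as *Itgax*, whose product CD11c is also carried by dendritic cells, monocytes and other leukocytes: neutrophils, mast cells, dendritic cells, and small peritoneal macrophages with monocytes. The summed level of the 7 listed neutrophil markers of 8 was 31.3 CPM without and 114 CPM with MCS at ZT2, and 30.0 and 12.8 CPM at ZT14. *Ngp* and *Camp* were among the neutrophil markers at 0 in at least 1 library, and *Ly6g*, the marker excluded by the sort, was not listed. The 6 mast cell markers summed to 1821 and 2244 CPM at ZT2 and to 1184 and 954 CPM at ZT14, in control and MCS. The 5 dendritic cell markers summed to 36.6 and 41.8 CPM at ZT2 and to 32.5 and 31.6 CPM at ZT14. However, *Flt3* (2.86 and 4.09 CPM) and *Ccr7* (16.1 and 17.1 CPM) were not lower with MCS at ZT14. Nor were *Zbtb46* (3.93 and 3.48 CPM) and *Ccr7* (20.3 and 20.1 CPM) higher with MCS at ZT2. The 8 markers of small peritoneal macrophages and monocytes summed to 4599 and 5233 CPM at ZT2 and to 4304 and 4233 CPM at ZT14. *Retnla* (322 and 239 CPM) carried the lower sum with MCS at ZT14. *Ccr2* (157 and 168 CPM), *H2-Ab1* (522 and 548 CPM) and *H2-Eb1* (465 and 496 CPM) were higher with MCS at that time, and the remaining markers of that list were lower. In each of these sums, as for *Itgax*, the MCS library was the highest at ZT2 and the lowest at ZT14. The gene with the pattern nearest to *Itgax* among 8631 genes with a mean of at least 10 CPM was *Cxcr2*, a chemokine receptor on the list of neutrophil markers, with 14.6 and 24.7 CPM at ZT2 and 12.7 and 7.46 CPM at ZT14 in control and MCS (Euclidean distance 0.158 on the centered log2 scale, 4 libraries). *Sulf2* (0.233) and *Foxred2* (0.363) came next. The part of these cells in the *Itgax* values was not tested.

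For *Itgb7*, which varied most within the beta 1 and beta 7 families, the nearest patterns were those of *Zfp395* (0.0208), *Vdac2* (0.0218) and *Rpl18* (0.0253). *Itgb7* is known from mast cells and lymphocytes. Its highest library, MCS at ZT14, had the lowest sums of mast cell markers and of B cell markers. That library also had the highest levels of the eosinophil markers *Siglecf* and *Ccr3* but the lowest level of the third listed one, *Il5ra* (33.9 CPM). The 5 B cell markers summed to 1044 and 1004 CPM at ZT2 and to 1279 and 901 CPM at ZT14 in control and MCS. The part of these cells in the *Itgb7* values was not tested.

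As families, the 2 sets of genes had like medians at ZT2 and differed more at ZT14. The median log2 MCS ratio at ZT2 was 0.01 in the beta 2 family and -0.01 in the beta 1 and beta 7 families, with 0.00 over all genes past the minimum. At ZT14 it was 0.05 in the beta 2 family, from -0.73 for *Itgax* to 0.24 for *Itgb2*, and 0.28 in the beta 1 and beta 7 families, from -0.04 for *Itga4* to 0.39 for *Itga6*, again with 0.00 over all genes. For ZT2 against ZT14 the medians were 0.10 and 0.12 in control, and 0.15 and -0.31 in MCS, beside -0.00 and 0.01 over all genes. With *Itgb5* counted among the beta 1 and beta 7 families, the last of these family medians, -0.31, became -0.09. In MCS the ratio of ZT2 to ZT14 ran from -0.25 to 1.64 in the beta 2 family, with 2 genes higher and 2 lower. In the beta 1 and beta 7 families it ran from -0.41 to 0.26, with 2 higher and 3 lower. Within the beta 2 family, *Itgam* and *Itgb2* lay on one side of 0 and *Itgal* and *Itgax* on the other in both MCS comparisons.

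All 4 libraries were also fitted with additive terms for time and MCS in limma. The fit takes MCS to act alike at ZT2 and ZT14, and time to act alike in control and MCS. It leaves 1 residual degree of freedom, which is the difference of the MCS ratio between the times. The SE and p values therefore rest on that difference, moderated over other genes, and not on the spread between mice or between libraries of a condition. For time, 0 of 10 members were called at an adjusted p of 0.05, beside 2.32% of 12511 genes, and edgeR's quasi-likelihood test also called 0 of 10, beside 2.41% of genes. At an unadjusted p under 0.05, 1 of 10 members passed in each tool, beside 10.5% of all genes in each. This was *Itgax*, with a log2 difference of 0.83 (SE 0.27) by limma. That value averaged a log2 ratio of ZT2 to ZT14 of 0.02 in control and 1.64 in MCS. The p of *Itgax* adjusted over all genes was 0.114 by limma and 0.101 by edgeR. For MCS, 0 of 10 members were called by limma, beside 0.152% of genes, and 0 of 10 by edgeR, beside 0.192%. At an unadjusted p under 0.05, 0 of 10 passed for MCS in limma and 0 in edgeR, beside 2.46% and 2.5% of all genes. Since the MCS ratio had opposite signs at both times in 9 members, the shared MCS term averaged them, to 0.14 (SE 0.21) for *Itga6* and 0.08 (SE 0.27) for *Itgax*.

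Of the other integrin subunits, 15 of 17 on the list were listed. Each had a lower mean CPM than *Itga9*, the lowest of the abundant members. *Itgav*, *Itgb3* and *Itga5* nevertheless had higher mean CPM than the members *Itgax* and *Itgb5*. No other subunit was called at a log2 ratio of 1 for MCS against control at ZT2, and *Itgae*, the alpha E partner of beta 7, was called lower at ZT14, with 33 reads in control and 16 in MCS (log2 ratio -1.10, -2.11 to -0.25). *Itga1*, *Itga2* and *Itgb4* were called higher at ZT2 than at ZT14 in control and in MCS. These were 3 of 10 past the minimum in control and 3 of 11 in MCS, beside 3.61% and 5.83% of all genes. *Itgb4* rested on 24 and 8 reads in control and 19 and 7 in MCS, at ZT2 and ZT14. *Itga1* rested on 49 and 17 reads in control and 49 and 22 in MCS. *Itga2*, a collagen-binding partner of beta 1, had 7.28 and 12.9 CPM at ZT2 and 2.53 and 3.99 CPM at ZT14 in control and MCS. *Itgb3*, the beta subunit of the vitronectin receptor, had 51.9 and 63.3 CPM at ZT2 and 31.5 and 48.5 CPM at ZT14, a log2 MCS ratio of 0.62 (0.41 to 0.84) at ZT14. *Itgav*, its alpha partner and that of beta 5, had 67.9 and 67.3 CPM at ZT2 and 71.5 and 78.3 CPM at ZT14, with MCS ratios of -0.01 (-0.18 to 0.15) and 0.13 (-0.02 to 0.28). *Itga5*, the fibronectin-binding partner of beta 1, lay between 28.1 and 33.4 CPM. Mast cell markers, given above, 5 markers of natural killer cells and 6 listed markers of fibroblasts and mesothelial cells were also higher at ZT2 in both groups. The natural killer markers summed to 28.5 and 39.9 CPM at ZT2 and to 14.1 and 14.5 CPM at ZT14 in control and MCS. The fibroblast and mesothelial markers summed to 18.1 and 20.8 CPM at ZT2 and to 5.27 and 8.998 CPM at ZT14. The part of these cells in the values of these subunits was not tested.

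Of the 36 activators and adaptors, 35 were listed, and 1 was called at a log2 ratio of 1 in any comparison, *Bcar1*, higher with MCS at ZT2 on 11 and 31 reads. At 0.5, 5 of the 32 past the minimum were lower at ZT2 than at ZT14 in MCS and 0 were higher, a smaller share than the 23.6% of all genes called in that comparison: *Cd9*, a tetraspanin that binds integrins (-0.57, -0.69 to -0.46), the kinases *Fgr* (-0.56, -0.68 to -0.43) and *Ptk2* (-0.66, -0.86 to -0.47), *Dok1*, a docking protein that competes with talin (-0.77, -0.99 to -0.56), and *Tln2* (-0.51, -0.70 to -0.33). *Cd9* was also higher with MCS at ZT14, with 110 CPM without and 179 CPM with MCS (0.70, 0.59 to 0.81).

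Of the 28 integrin ligands, 26 were listed. At a log2 ratio of 1, 3 of the 19 past the minimum were called higher with MCS at ZT14, where 3.4% of all genes were called in either direction: *Thbs1*, which encodes thrombospondin-1 (73.8 CPM without and 200 CPM with MCS), *Spp1*, which encodes osteopontin, a ligand of alpha 4 and alpha 9 integrins (7.36 and 19.3 CPM), and *Lamb2*, a laminin chain (5.82 and 12.2 CPM). *Tnc* was called higher with MCS at ZT2 on 2 and 28 reads. *Thbs1* was called higher at ZT2 than at ZT14 in both groups, with 1376 CPM without and 938 CPM with MCS. *Icam2*, a ligand of LFA-1, had 237 and 210 CPM at ZT2 and 247 and 323 CPM at ZT14, with MCS ratios of -0.17 (-0.26 to -0.08) and 0.39 (0.31 to 0.47). *Icam1*, another ligand of LFA-1 and of CD11b, had 20.0 and 20.2 CPM at ZT2 and 33.8 and 28.8 CPM at ZT14, with an MCS ratio of -0.23 (-0.47 to 0.01) at ZT14. *Fn1*, which encodes fibronectin, lay between 56553 and 61551 CPM, and *Vcam1* had at most 2 reads in any library. *Mfge8*, *Fga* and *Adam8* were the other ligands past 0.5 in any comparison at a mean of at least 10 CPM. *Mfge8*, which encodes a bridge between apoptotic cells and alpha v integrins, had an MCS ratio of 0.52 at ZT14, *Fga*, a fibrinogen chain, had -0.53 at ZT2, and *Adam8* was higher at ZT2 than at ZT14 in control by 0.79 and in MCS by 0.55.

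Overlapping gene models limit 3 members. The span of *Gm49368*, on the same strand, covers 4639 exonic bases of *Itgam*. The span of *Cerkl*, on the opposite strand, covers 2581 exonic bases of *Itga4*. The span of the antisense gene *Gm2415* covers 3770 exonic bases of *Itga9*. Spans of the overlapping genes were taken whole, with any introns, so bases shared between exons of both genes were not counted. *Cerkl* was below 1 CPM in every library, and *Gm49368* and *Gm2415* were not listed. The libraries were directional, but the strand setting of the counting was not given in the sources used here.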

How the data were processed

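Total RNA of sorted peritoneal macrophages was depleted of ribosomal RNA and sequenced as directional paired-end libraries, 1 per condition. Per the labels and methods, the authors trimmed reads with Trimmomatic 0.38, counted them with RSEM 1.3.0 and Bowtie2 on mm10, and deposited CPM normalized by edgeR. The sources name 2 different RNA purification kits.

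Each deposited CPM value was divided by the smallest step of its library, which gave whole reads for 100% of values at a tolerance of 0.05 read. RSEM can estimate fractions of a read, so any rounding by the authors is included. Log2 ratios used a pseudocount of 0.1 CPM, which understates changes of scarce genes. Calls required a log2 mean CPM of both libraries above 0. Intervals were exact conditional binomial (Clopper-Pearson) at 95%, and those of differences were normal approximations from the same reads. They cover counting error only. The additive fits used limma 3.58.1 with trend on log2(CPM + 0.1) of genes with a mean of at least 1 CPM, with Benjamini-Hochberg adjustment over all genes, and edgeR 4.0.16 on the recovered reads as the alternative. All fits and ratios were run on the whole table and tested on simulated data. Alternatives were other pseudocounts, minima and thresholds, rescaling to a median ratio of 1 and TMM factors. Levels per kb used the longest coding transcript of GENCODE for GRCm38, the build of mm10, and promoters came from RefSeq.

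The members, families, lists of other subunits, activators, ligands and markers, and the tests were chosen with earlier results of these data known. Named were all 10 members, other subunits with a mean of at least 1 CPM or called, activators and ligands past 0.5 at a mean of at least 10 CPM, and the 3 nearest patterns for the most variable member of each family; *Itga2b*, *Itga3* and *Itga7* met this rule and are named in the closing section. *Tln1*, *Fermt3*, *Vcl*, *Flna*, *Syk*, *Fn1*, *Vcam1*, *Bcar1*, *Lamb2*, *Tnc* and the single cell type markers were named after their values were seen, as was the level of 64 CPM chosen for abundant genes. Scripts ran in R 4.3.3 and Python 3.11.15 (scipy 1.17.1, pandas 2.3.3, numpy 2.4.6, matplotlib 3.10.9).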

Additional observations from a re-analysis of the deposited data

Results flagged for a closer look

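The MCS ratio had opposite signs at ZT2 and ZT14 in 9 of 10 integrin genes, and in 58.7% of all genes past the minimum at both times. Both ratios were beyond counting error in 5 of the 9, *Itgam*, *Itgb2*, *Itga6*, *Itgb1* and *Itgax*. The difference of the log2 MCS ratio, ZT14 minus ZT2, was 0.49 for *Itga6*, 0.43 for *Itgb1*, 0.38 for *Itgb2*, 0.31 for *Itgam*, 0.29 for *Itgb7* and 0.03 for *Itga9*, and -0.14 for *Itga4*, -0.24 for *Itgal* and -1.62 for *Itgax*. These differences between the times were not tested, because each condition had 1 library. For *Itga9* the difference was within counting error.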

How the results depend on the processing

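Of the 28 alternatives of the counts of members called by their ratio, 24 left the count within 1.5 times. At an absolute log2 ratio of 0.5 the count went from 0 to 2 for MCS against control at ZT2 and from 0 to 1 at ZT14. For ZT2 against ZT14 in MCS it fell from 2 to 1 with a pseudocount of 1 CPM and with a log2 mean above 3, in both of which *Itgb5* was no longer called. The median of the beta 1 and beta 7 families for ZT2 against ZT14 in MCS went from -0.3075 to -0.0871 when *Itgb5* was counted with them, and 35 other alternatives of family medians moved within counting error. No member's ratio changed sign under another pseudocount or scaling. TMM factors returned the deposited scaling. The smallest adjusted p of a member for time ranged from 0.101 to 0.355 over the settings of the additive fit, and without a filter on low values the number of genes called fell from 290 to 154 for time and from 19 to 5 for MCS. With a mean of at least 10 CPM, 9 genes were called for MCS.

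No paired analysis was possible because each condition had 1 library, and no library was left out of a comparison or of the additive fit, which has 1 residual degree of freedom. Depth limits *Itgb5*, with 12 to 28 reads per library, and *Itgax*, with 69 to 191. The spread between mice and between library preparations is unknown, so intervals that exclude no change show only that 2 libraries differ.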

Other observations

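The following integrin subunits had mean levels under 10 CPM. *Itga2b*, the alpha IIb subunit of platelets and megakaryocytes, had 7.39 CPM without and 8.005 CPM with MCS at ZT2, and 4.83 and 5.01 CPM at ZT14, higher at ZT2 in both groups by a log2 ratio of 0.60 (0.04 to 1.20) and 0.67 (0.13 to 1.23). *Itga3*, a laminin-binding partner of beta 1, had 3.35 and 3.83 CPM at ZT2 and 3.52 and 1.94 CPM at ZT14, an MCS ratio of -0.82 at ZT14 whose interval (-1.76 to 0.01) included no change. *Itga7*, another laminin receptor subunit, lay between 1.04 and 1.62 CPM in the 4 libraries.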
